A study of Mus musculus with 12 samples.

Results

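Open chromatin in a RAW264.7 macrophage line induced to express Nur77 was compared with that in the matching GFP line, both without lipopolysaccharide (LPS). Accessibility was profiled by ATAC-seq, in which a transposase inserts adapters into open DNA. The comparison used 6 of the 12 libraries of the series, 3 Nur77 libraries and 3 GFP libraries, chosen by the line and treatment in their labels. The Nur77 group was a stable line with a doxycycline-inducible Nur77 gene, given 1 µg/ml doxycycline for 18 h and then 0 h of LPS. The GFP group was a stable line with inducible green fluorescent protein, given the same doxycycline and likewise no LPS. RAW264.7 is an established mouse macrophage cell line, so both groups still carry the native Nr4a1 gene that encodes Nur77. The labels give 1 stable line per construct and do not say whether replicates were separate cultures. The p-values therefore measure the spread between these libraries, which may be technical, and an effect of Nur77 cannot be told apart from other differences between the 2 lines. The remaining 6 libraries, of the same lines after 1 h of 500 ng/ml LPS, served only to look up the same regions.

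Nur77 is an orphan nuclear receptor of the NR4A family. It binds DNA as a monomer at an element called NBRE (AAAGGTCA) and is an immediate early gene in macrophages, where it is known for restraining inflammatory gene expression. Accessible regions in macrophages lie at promoters and at distal enhancers, where lineage factors such as PU.1 and signal-dependent factors such as AP-1 and NF-kB bind.

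The data were 1 peak list per library in mm10 coordinates. The peaks of the 6 lists were merged into 81793 regions, and a library called a region when 1 of its peaks overlapped it. A region was termed gained when all 3 Nur77 libraries and no GFP library called it, and lost in the opposite case. The 30456 regions called in all 6 libraries, here termed shared, were also ranked within each library by the authors' −log10 q. A percentile of 100 is the strongest shared region of that library, so a shift is a change of order among shared regions and not a change of level. Positions relative to genes come from the RefSeq table of build GRCm38.p6, which gives gene spans, so exons and introns were not told apart.

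The sequences below belong to promoters under regions that separated or shifted most. Each shows the 250 bases before the RefSeq start (GRCm38.p6), 5′ to 3′ on the gene's strand, with CG dinucleotides in capitals. The start of Ece1 lay in a gained region, that of Klf6 in a lost region, that of Apold1 in a region ranked higher in Nur77 and that of Cstf2t in a region ranked lower. They were picked after their values were seen.

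Ece1 (chr4:137913308-137913557, plus strand): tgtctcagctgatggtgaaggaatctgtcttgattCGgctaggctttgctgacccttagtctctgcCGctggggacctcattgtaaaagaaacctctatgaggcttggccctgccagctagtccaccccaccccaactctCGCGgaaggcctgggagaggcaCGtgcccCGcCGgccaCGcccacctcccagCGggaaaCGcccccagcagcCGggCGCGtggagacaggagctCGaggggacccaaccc
Klf6 (chr13:5861239-5861488, plus strand): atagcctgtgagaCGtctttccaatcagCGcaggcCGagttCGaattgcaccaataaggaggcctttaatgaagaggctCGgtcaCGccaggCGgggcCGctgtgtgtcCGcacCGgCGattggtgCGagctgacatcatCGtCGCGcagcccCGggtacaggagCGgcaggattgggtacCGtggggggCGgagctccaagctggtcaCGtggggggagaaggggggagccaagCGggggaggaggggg
Apold1 (chr6:134981751-134982000, plus strand): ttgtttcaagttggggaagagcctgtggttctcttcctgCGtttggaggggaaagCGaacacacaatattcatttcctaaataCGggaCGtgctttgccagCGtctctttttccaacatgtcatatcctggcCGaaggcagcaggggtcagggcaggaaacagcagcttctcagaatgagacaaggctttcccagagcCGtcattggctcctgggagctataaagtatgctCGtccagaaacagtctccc
Cstf2t (chr19:31082591-31082840, plus strand): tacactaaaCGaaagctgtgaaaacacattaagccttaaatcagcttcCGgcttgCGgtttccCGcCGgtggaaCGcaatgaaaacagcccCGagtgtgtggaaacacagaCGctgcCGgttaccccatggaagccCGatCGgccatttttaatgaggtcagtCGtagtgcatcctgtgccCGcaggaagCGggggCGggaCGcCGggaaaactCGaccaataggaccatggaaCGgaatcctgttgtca

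The Klf6 stretch held 21 CG dinucleotides at 64.8% G and C, the Ece1 stretch 14 at 63.6%, the Cstf2t stretch 19 at 54.4% and the Apold1 stretch 8 at 50.8%. No NBRE (AAAGGTCA), AP-1 (TGANTCA) or PU.1 (GAGGAAGT) word was found on either strand of these 4 stretches.

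Promoters of shared regions were also searched for the NBRE, as the element of the induced receptor. It was found in 6 of the 217 promoters under regions ranked higher in Nur77 (2.76%), in 3 of the 347 under regions ranked lower (0.865%) and in 109 of the 12134 under all shared regions (0.898%). Of all 32851 promoters in the table, 1.51% held it. Promoters here are 250 bases before to 50 after each start, on both strands, and the word was in 0 of the 18 under gained regions, in 2 of the 116 under lost regions (1.72%) and in 0 of the 124 under regions ranked lower outside chromosome 12. The counts are small and are a description without a test. Windows are shown for the 5 regions ranked higher outside chromosome 12 whose promoter held the word wholly before the start, with 1 promoter per region. They were chosen after their values were seen and show the word in capitals, as AAAGGTCA or, where it lies on the other strand, TGACCTTT.

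Gm33315 (chr13:52829085-52829132, plus strand): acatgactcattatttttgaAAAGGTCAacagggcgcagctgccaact
Gm46838 (chr3:105825932-105825979, minus strand): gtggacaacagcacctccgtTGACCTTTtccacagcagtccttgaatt
Fhit (chr14:10453517-10453564, minus strand): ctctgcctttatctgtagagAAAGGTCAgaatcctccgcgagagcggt
Dedd (chr1:171328959-171329006, plus strand): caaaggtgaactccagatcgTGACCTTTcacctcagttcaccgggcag
Eno1 (chr4:150236524-150236571, plus strand): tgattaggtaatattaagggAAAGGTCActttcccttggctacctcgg

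At the Eno1 promoter, which belongs to a glycolytic enzyme gene and lay in a region of mean percentile 99.8 ± 0.0854 in Nur77 and 97.5 ± 1.03 in GFP libraries (SD, n = 3 each), the shift was only 2.28 points (limma, adjusted p = 0.000611). The Fhit promoter region, of a putative tumour suppressor, averaged 70.1 ± 2.11 in Nur77 and 50.9 ± 4.01 in GFP libraries (SD, n = 3 each, limma, adjusted p = 0.0141). The Dedd region, of a death effector domain protein gene, averaged 91.4 ± 0.649 in Nur77 and 82.5 ± 4.75 in GFP libraries (SD, n = 3 each, limma, adjusted p = 0.0212). All of these were higher in Nur77, which the choice of regions fixes.

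AP-1 words (TGANTCA) were found in 34 of the 347 promoters under regions ranked lower (9.80%), in 19 of the 124 of these outside chromosome 12 (15.3%), in 17 of the 116 under lost regions (14.7%), in 14 of the 217 under regions ranked higher (6.45%), in 0 of the 18 under gained regions and in 647 of the 12134 under shared regions (5.33%). An AP-1 word was in 7.81% of all promoters. The sets also differed in base composition. The median G and C content was 59.7% for the regions ranked lower, 57.5% for those outside chromosome 12, 52.0% for lost regions, 63.3% for regions ranked higher, 61.3% for shared regions and 52.7% over all promoters. The part of base composition in these shares was not tested. The 6 windows with the largest shifts among those outside chromosome 12 with the word before the start, again chosen after their values were seen, are shown with the word in capitals.

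A330074K22Rik (chr8:120228231-120228259, minus strand): tctctccgcccctcctcctcTGACTCAtc
Spef1l (chr7:139978829-139978875, minus strand): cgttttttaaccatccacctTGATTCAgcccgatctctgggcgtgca
Atp13a4 (chr16:29545016-29545062, minus strand): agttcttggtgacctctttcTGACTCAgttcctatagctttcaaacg
Tspan15 (chr10:62231219-62231250, minus strand): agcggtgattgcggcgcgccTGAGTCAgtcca
Gm36412 (chr3:37602390-37602432, minus strand): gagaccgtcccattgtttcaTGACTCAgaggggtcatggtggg
C1qtnf6 (chr15:78529794-78529840, minus strand): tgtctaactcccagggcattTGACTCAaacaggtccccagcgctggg

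The Atp13a4 region, at a cation-transporting ATPase gene, averaged 17.9 ± 4.50 in Nur77 and 53.8 ± 1.92 in GFP libraries (SD, n = 3 each, limma, adjusted p = 0.0014). The Tspan15 region, at a tetraspanin gene, averaged 12.9 ± 8.73 in Nur77 and 42.5 ± 14.5 in GFP libraries (SD, n = 3 each, limma, adjusted p = 0.0223). Both regions ranked lower in Nur77. A word in a promoter is not a binding site, and nothing here measured binding.

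As context, the Nur77 lists held 55656, 36184 and 55446 peaks for libraries 1, 2 and 3, against 54515, 65014 and 65061 in the GFP lists. The means were 49095 ± 11182 and 61530 ± 6075 peaks (SD, n = 3 each, exact permutation test, two-sided p = 0.3, where 0.1 is the smallest that 3 against 3 allows). Covered length averaged 47.7 ± 12.6 Mb in Nur77 and 55.0 ± 2.28 Mb in GFP lists (exact permutation test, two-sided p = 0.6). Without Nur77 library 2 the differences, Nur77 minus GFP, were −5979 peaks and −0.39 Mb. No read totals were used. As a stand-in for depth, the background height that the fold values imply was 0.759, 0.402 and 1.25 reads in Nur77 and 0.919, 0.964 and 1.14 in GFP libraries, and the weakest listed peaks held 5 to 8 reads. Nur77 library 2 was thus the shortest list with the lowest background, and a region that it lacks may be open but too weak to be listed. Pearson correlations of the normal scores of shared ranks ran from 0.901 to 0.957 within a line and from 0.865 to 0.915 between lines, over regions of the same 6 lists. As a check of the cell type, promoters of 7 of 10 macrophage surface and granule genes were called in all 6 libraries, against 1 of 7 T cell, 1 of 3 B cell, 1 of 5 neuron, 0 of 3 fibroblast and 0 of 6 epithelial marker promoters.

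As a check of the line labels, the region chr15:101270144-101270767 inside Nr4a1 was called in 3 of 3 Nur77 and 0 of 3 GFP libraries. Its authors' fold over background was 10.2, 7.13 and 9.32 in Nur77 libraries 1, 2 and 3, at percentiles of 41.3, 22 and 35.9 within the full lists. It was likewise called in 3 Nur77 and 0 GFP libraries after LPS. The other 4 shared regions nearest to Nr4a1, among them the promoter region, did not pass the rank test. The promoter region stood at percentiles 58.6, 18.6 and 50.6 in Nur77 and 46.5, 62.9 and 56.0 in GFP libraries, and the groups overlapped (limma, adjusted p = 0.383). Reads of the introduced Nur77 sequence and of the native gene are not separated in the lists.

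Far more regions were lost than gained in the lists as deposited. In Nur77 against GFP, 240 regions were gained (0.293% of 81793) and 2684 were lost (3.28%). Trimming every list to its strongest 36184 peaks gave 692 gained (1.46% of 47388) and 1109 lost regions (2.34%). In both settings 85 regions were gained and 398 were lost, 35.4% and 14.8% of the counts as deposited. With 1 library left out the rule asks for fewer calls, so these counts can only stay or rise: 1236 regions were gained without Nur77 library 2, and 4412 and 5470 lost without Nur77 library 3 and GFP library 1. No test per region was made, since 3 against 3 cannot give an exact two-sided p below 0.1.

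**Figure D1:**
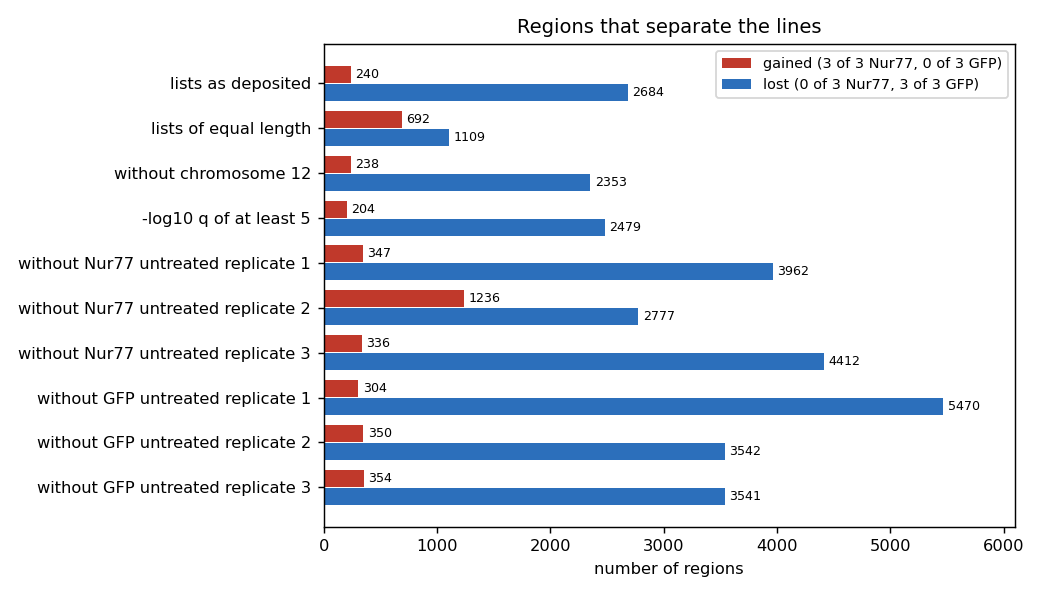
Numbers of regions (x axis) gained in Nur77 (3 of 3 Nur77 and 0 of 3 GFP libraries, red) and lost (blue) for the lists as deposited and under each alternative (y axis), with bars from 0. Lost regions outnumbered gained ones in every setting shown, by 2684 to 240 in the lists as deposited and by 1109 to 692 in lists of equal length.

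Gained and lost regions lay mostly away from gene ends and ranked below the median of all regions. The gained ones had a median percentile of 26.2 in the full lists and the lost ones 28.1, above the 22.4 of regions called in any 3 of the 6 libraries and below the 33.1 of all regions. Within 1000 bp of an end of a protein-coding gene lay 10% of the regions gained in Nur77 and 8.05% of those lost, close to the 8.68% of regions called in any 3 of the 6 libraries and below the 18.2% of all regions. Inside a gene span lay 67.5% of the regions gained and 44.2% of those lost, against 51.1% of regions called in any 3 of the 6 libraries and 57.9% of all.

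The prominent gained regions lay at genes of several kinds. The region at the start of Zic5, a zinc finger transcription factor gene (chr14:122462740-122465659), had percentiles of 83.0, 74.1 and 84.9 in the Nur77 libraries and was in no GFP list. The Ece1 promoter region, whose sequence is given above (chr4:137912712-137914228), had 83.5, 70.4 and 81.9 in the Nur77 libraries and was in no GFP list. Ece1 encodes the endothelin-converting enzyme. In both cases the 3 GFP libraries of the LPS arm also lacked the region and the 3 Nur77 libraries had it. The same held for regions inside Arhgef33 (chr17:80372977-80374379, at the start of Gm10190), Nefh, a neurofilament gene, Rasgrf2, a Ras activator gene, Cntn4, a contactin gene, Naa35, an acetyltransferase subunit gene, and Hmox2, the constitutive haem oxygenase gene, and for a region 8.76 kb from Sh3gl3, an endophilin gene. The region inside Fnbp1, whose product bends membranes, was in 3 Nur77 and 2 GFP lists after LPS. At Ece1 itself, 5 other regions were shared by all 6 libraries and 0 of them passed the rank test.

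The most prominent lost region was the Klf6 promoter. Klf6 is a Krüppel-like zinc finger factor gene expressed in myeloid cells. The region chr13:5860759-5862383 had percentiles of 84.0, 89.8 and 89.4 and folds of 38.6, 54.5 and 54.7 in GFP libraries 1, 2 and 3, and was in no Nur77 list. Both further regions of Klf6, at chr13:5863219-5866838 and chr13:5869812-5873175, were called in all 6 libraries. The first stood at 43.8, 43.5 and 47.2 in Nur77 and 29.9, 14.8 and 28.6 in GFP libraries, without overlap, but did not pass (limma, adjusted p = 0.0691). The second stood at 80.9, 79.9 and 85.5 in Nur77 and 86.2, 82.5 and 80.4 in GFP libraries, which overlapped (adjusted p = 0.887). After LPS the promoter region was again in 0 Nur77 and 3 GFP lists.

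Ppargc1a had 4 lost regions within the gene span. Its product, PGC-1alpha, is a transcriptional coactivator of mitochondrial biogenesis. The strongest, chr5:51591146-51592366, had percentiles of 85.5, 83.1 and 84.7 in the GFP libraries and was in no Nur77 list. Of the other regions at the gene, 1 was called in all 6 libraries and did not pass (limma, adjusted p = 0.339). Other prominent lost regions lay inside Pde7b, a cyclic AMP phosphodiesterase gene, and Ldlrad3, a receptor gene of the LDL receptor family. Others lay 259.6 kb from Ldb2, a LIM-domain binding factor gene, 75.6 kb from Adcyap1r1, a neuropeptide receptor gene, 73.9 kb from Plpp4, a phospholipid phosphatase gene, 168.0 kb from Kcnb2, a potassium channel gene, and 3.19 kb from Ankdd1a. In the GFP libraries these 7 had mean percentiles in the full lists between 77.2 and 80.2. After LPS, the regions of Klf6, Ppargc1a, Adcyap1r1, Pde7b, Plpp4 and Ankdd1a kept 0 Nur77 and 3 GFP calls, whereas the Ldb2 and Kcnb2 regions were in 2 Nur77 lists each and the Ldlrad3 region in 1.

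Across the LPS libraries, 46 of the 240 gained regions were gained there too (19.2%, against 0.245% of all regions), and 445 of the 2684 lost regions were lost there too (16.6%, against 1.63%). Among regions gained or lost in both settings the shares were 31 of 85 (36.5%) and 149 of 398 (37.4%). No gained region was lost after LPS and no lost region was gained. These are other libraries of the same 2 lines.

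Among shared regions, 763 ranked higher in Nur77 (2.51% of 30456) and 1337 ranked lower (4.39%) by limma on normal scores of the ranks with Benjamini-Hochberg adjustment at 0.05. The median shift of all shared regions was 0.28 percentile points. Regions called higher had a median shift of 22.5 points, from 0.91 to 66.0, and regions called lower had a median shift of −22.5, from −76.5 to −0.53. The 3 Nur77 and 3 GFP values did not overlap in 762 and 1331 of them. Higher calls numbered 498 and 481 without Nur77 libraries 1 and 3, and 458, 343 and 322 without GFP libraries 1, 2 and 3. Lower calls numbered 2420 without Nur77 library 2, where 38648 regions were shared, and 665, 595 and 597 without GFP libraries 1, 2 and 3.

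**Figure D2:**
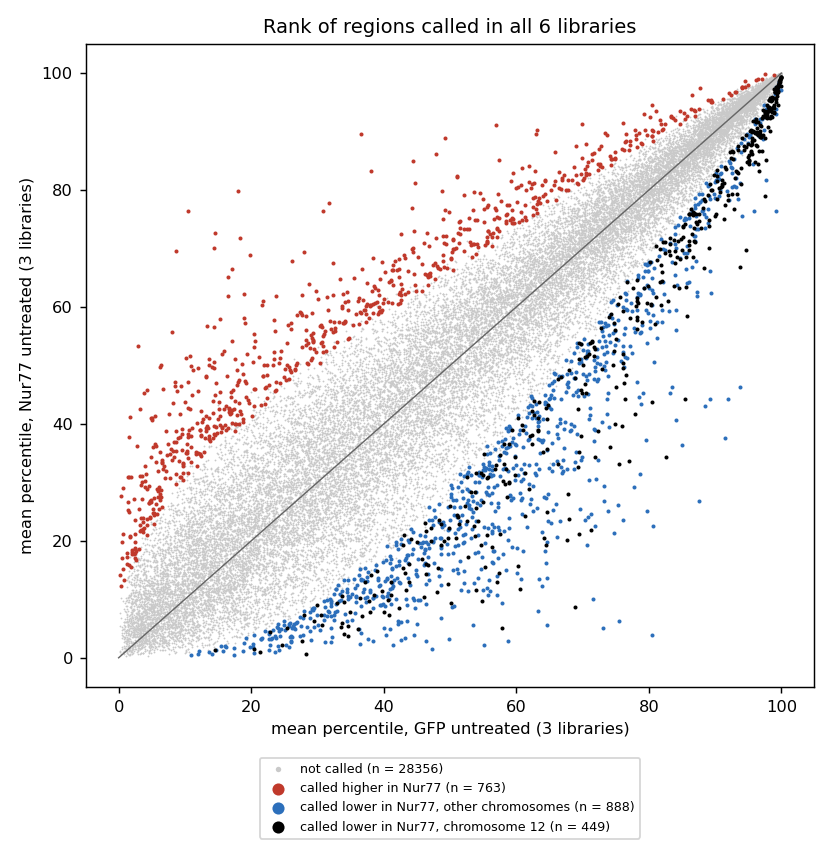
Each point is 1 of the 30456 shared regions, with its mean percentile in the 3 Nur77 libraries (y axis) against that in the 3 GFP libraries (x axis). Of the 1337 regions called lower, the 449 on chromosome 12 are black and the other 888 blue, the 763 called higher are red, and the line marks equal ranks.

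The 10 regions ranked higher in Nur77 with the largest shifts outside chromosome 12 follow. A region 25.1 kb from Cd180, which encodes a Toll-like receptor relative on antigen-presenting cells, stood at 75.4, 77.6 and 76.5 in Nur77 and 7.92, 11.6 and 11.9 in GFP libraries (chr13:102663369-102668476). All Nur77 values lay above all GFP values, by 66.0 points on average (limma, adjusted p = 7.29e-07). The region inside Vps18, a lysosomal tethering gene, stood at 79.1, 79.9 and 80.5 in Nur77 and 21.0, 22.4 and 10.6 in GFP libraries (adjusted p = 1.37e-06, chr2:119295606-119298930).

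The Def6 region, of a signalling regulator in immune cells, was the strongest of these in Nur77, at 87.0, 89.8 and 92.0 in Nur77 and 40.4, 36.2 and 33.2 in GFP libraries (limma, adjusted p = 1.73e-07, chr17:28223270-28224859). The Apold1 promoter region, shown above, stood at 56.4, 47.9 and 55.8 in Nur77 and 1.05, 4.61 and 3.20 in GFP libraries (adjusted p = 4.46e-05). It was in 3 Nur77 and 0 GFP lists after LPS. The others with the largest shifts lay 3.24 kb from Cenpa, the centromeric histone gene, and inside Camkk2, a calcium-dependent kinase gene, Fbxw8, an F-box gene, Golga3, a golgin gene, Nfatc2, a calcium-regulated transcription factor gene, and Arid1a, a chromatin remodelling subunit gene. Their mean shifts ran from 49.0 at Arid1a to 60.9 at Cenpa, and no Nur77 value fell within the GFP range.

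Regions ranked lower in Nur77 included the largest shifts of the comparison. The region inside Dpp6, a potassium channel subunit gene, stood at 3.40, 6.31 and 2.14 in Nur77 and 79.1, 80.8 and 81.3 in GFP libraries (chr5:27303295-27304981). The difference was −76.5 points (limma, adjusted p = 1.62e-07), and after LPS the region was in 2 Nur77 and 3 GFP lists. The Cstf2t promoter region, shown above, stood at 25.1, 26.2 and 29.4 in Nur77 and 83.7, 89.6 and 89.4 in GFP libraries (adjusted p = 1.62e-07). Cstf2t encodes an mRNA 3′ end processing factor.

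The region inside Zfhx3, a zinc finger homeobox gene, stood at 3.40, 0.98 and 4.45 in Nur77 and 63.5, 52.1 and 60.8 in GFP libraries (limma, adjusted p = 2.09e-05). It was in 0 Nur77 and 3 GFP lists after LPS. The promoter region of Glipr2, a Golgi-associated protein gene, stood at 16.9, 0.98 and 6.27 in Nur77 and 68.2, 65.0 and 56.6 in GFP libraries (adjusted p = 0.000201). Further large shifts lay 48.6 kb from Gm38821, 30.1 kb from BC107364, 11.1 kb from Dynll2, a dynein light chain gene, 5.36 kb from Calcb, a calcitonin gene-related peptide gene, and inside Pakap, a kinase-anchoring protein gene, and Mreg, the melanoregulin gene. Their mean shifts ran from −54.5 at Mreg to −69.2 at Gm38821, with the Nur77 values below the GFP values throughout. All 20 of these calls, higher and lower, held when any 1 library was left out.

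**Figure D3:**
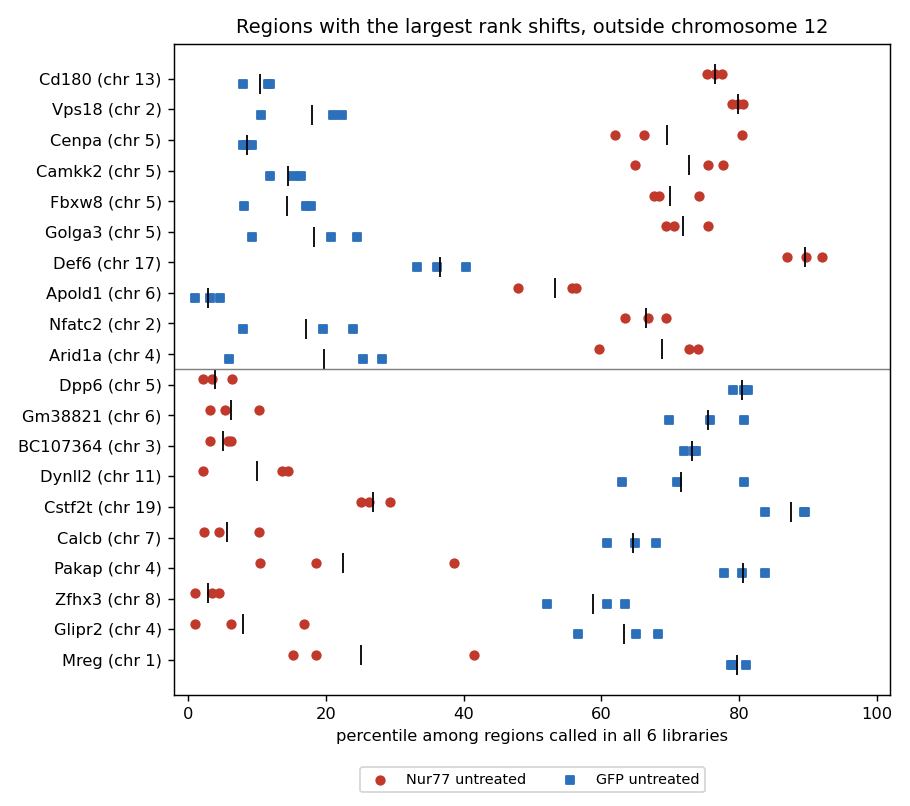
Percentile among shared regions (x axis) in each Nur77 library (red circles) and GFP library (blue squares) for the 10 regions ranked higher and the 10 ranked lower with the largest shifts outside chromosome 12, named by nearest gene (y axis). Black ticks are means of 3, and the groups do not overlap at any region shown, from Cd180 (76.5 in Nur77, 10.5 in GFP) to Dpp6 (3.95 in Nur77, 80.4 in GFP).

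In the LPS libraries the direction was mostly the same. Of the 763 regions ranked higher, 612 were called in all 6 LPS libraries, and 566 of these (92.5%) had a higher mean percentile in Nur77 than in GFP, against 55.3% of all shared regions that could be compared. In 375 (61.3%) the Nur77 values all lay above the GFP values, against 13.9% of all. Of the 1337 ranked lower, 1240 could be compared, 1214 (97.9%) were lower in Nur77, against 44.7% of all, and 964 (77.7%) lay apart below, against 14.0%. Without chromosome 12 the shares for the lower regions were 96.9% and 73.2%.

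The regions ranked higher and those ranked lower both lay at gene ends less often than all shared regions. Within 1000 bp of an end of a protein-coding gene lay 24.4% of the regions ranked higher, 22.1% of those ranked lower and 34.7% of all shared regions. Outside chromosome 12 the share was 24.5% for the higher, 14.8% for the lower and 35.0% for all shared regions. On chromosome 12 it was 36.7% for the lower and 29.3% for all shared regions. Further than 50 kb from any protein-coding gene lay 6.95% of the higher, 11.2% of the lower and 5.61% of all shared regions. In the lists themselves the gene-end share of peaks averaged 25.2% ± 4.20 in Nur77 and 21.3% ± 1.52 in GFP libraries (SD, n = 3 each, exact permutation test, two-sided p = 0.3). Nur77 library 2 had 30.1%, and Nur77 libraries 1 and 3 had 22.7% and 22.9%, within the GFP range of 20.3% to 23.0%.

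Chromosome 12 stood apart as a whole. It held 3.78%, 3.83% and 3.78% of the peaks in the Nur77 lists and 5.04%, 5.13% and 5.22% in the GFP lists, without overlap (exact permutation test, two-sided p = 0.1, the smallest possible). The median percentile of its 1196 shared regions was 43.8, 45.7 and 44.3 in Nur77 and 58.7, 59.3 and 59.7 in GFP libraries, a difference of −14.6 (exact permutation test, two-sided p = 0.1). The authors' median fold on chromosome 12 was 0.851, 0.909 and 0.862 times that on other chromosomes in Nur77 libraries, and 1.24, 1.26 and 1.26 times in GFP libraries. After LPS this ratio was 0.829, 0.822 and 0.867 in Nur77 and 1.28, 1.24 and 1.24 in GFP libraries.

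The displacement ran along the whole chromosome. Of its shared regions 449 ranked lower in Nur77 (37.5%) and 7 higher, and 1072 (89.6%) had a mean shift below 0, against 45.8% on the other chromosomes. Its median shift was −9.61 points, while the other chromosomes with at least 100 shared regions had medians from −0.052 on chromosome 3 to 1.84 on X. In successive 10 Mb bins the median shift ran from −11.6 to −7.32 over the bins with 20 or more shared regions, and was −5.79 in the bin with 16. In each bin at least 26.9% of the regions ranked lower. DNA copy number was not measured, and a difference in copy number, in accessibility or between lines cannot be told apart here.

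**Figure D4:**
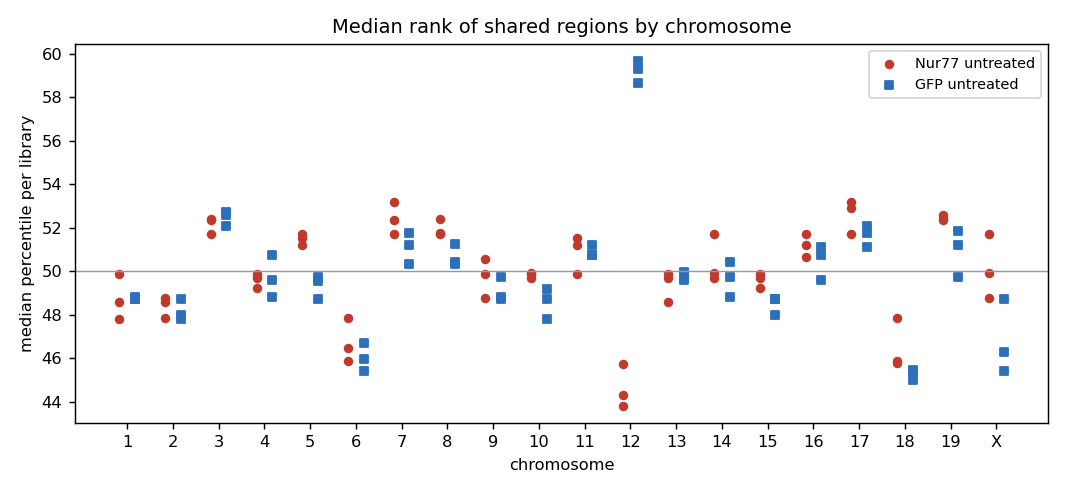
Median percentile of shared regions (y axis) for each chromosome (x axis) in each Nur77 library (red circles, left) and each GFP library (blue squares, right), with a line at 50. On chromosome 12 the Nur77 medians lie between 43.8 and 45.7 and the GFP medians between 58.7 and 59.7.

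Chromosome 12 also held 331 lost and 2 gained of its 4066 regions as deposited (8.14% lost, against 2.40% to 4.25% on the other chromosomes with at least 100 shared regions), and 148 lost and 12 gained in lists of equal length. Without it, 238 regions were gained and 2353 lost as deposited, and 680 and 961 in lists of equal length. The calls of the rank test outside chromosome 12 were 756 higher (2.58% of 29260) and 888 lower (3.03%). When ranks were retaken without chromosome 12 they were 595 and 854, and with ranks taken within each chromosome, an alternative chosen after seeing the data, 546 and 806 over all chromosomes, of which 26 and 37 lay on chromosome 12.

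Named regions of chromosome 12 followed the same order. The region inside Dnmt3a, a de novo DNA methyltransferase gene, stood at 23.4, 45.7 and 33.6 in Nur77 and 84.8, 81.1 and 82.0 in GFP libraries (limma, adjusted p = 1.5e-05). The region inside Kcnk13, a potassium channel gene, stood at 10.2, 6.31 and 9.34 in Nur77 and 65.3, 71.0 and 70.2 in GFP libraries (adjusted p = 4.06e-06). Regions inside or near Cog5, a Golgi tethering gene, and Itpk1, an inositol phosphate kinase gene, shifted by −52.7 and −49.4 points. The calls at Dnmt3a, Kcnk13, Cog5 and Itpk1 also held with ranks taken within each chromosome.

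Against that trend, the promoter region of Jag2, a Notch ligand gene on chromosome 12, stood at 32.9, 29.6 and 30.5 in Nur77 and 1.96, 0.51 and 1.73 in GFP libraries (limma, adjusted p = 0.001), and a region 8.34 kb from Wdr20 averaged 50.3 ± 1.94 in Nur77 and 18.6 ± 1.99 in GFP libraries (SD, n = 3 each, adjusted p = 0.0035). Both calls held without any 1 library. Regions near Kif3c, Tdp1 and Adam6b were also called higher, but these calls ended without Nur77 library 3, GFP library 1 or GFP library 2 (Kif3c), without Nur77 library 3, GFP library 1 or GFP library 3 (Tdp1), and without any 1 library (Adam6b). The lost regions on the chromosome included those near Nrde2, Rgs6, Plekhd1, Myt1l and Akap6. After LPS these were in 1, 2, 0, 0 and 3 Nur77 lists, in that order, and each was in 3 GFP lists. The 2 gained regions of the chromosome lay inside Sos2, a Ras activator gene, and Syne3, a nuclear envelope gene. After LPS the Sos2 region was in 1 Nur77 and 3 GFP lists, the opposite order, and the Syne3 region in 2 Nur77 and 0 GFP lists.

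Regions within 50 kb of genes of the NR4A pathway, of macrophage signalling and of other cell types were counted for 18 lists. Of 56 shared regions near NR4A receptors and their partners, 4 ranked higher and 4 lower (7.14% each, against 2.51% and 4.39% of all shared regions). Of those lower, 3 lay near Rcor1, the corepressor CoREST gene on chromosome 12. With ranks taken within each chromosome their adjusted p-values were 0.630, 0.902 and 0.940 (limma). The other, inside Rxra, shifted by −30.8 points (limma, adjusted p = 0.0037). Outside chromosome 12 the counts were 4 higher and 1 lower of 46, beside 2.58% and 3.03% of all shared regions there. Near Hdac1 lay 2 of the higher regions, which also lay within 50 kb of Lck and are counted again under T cell markers. The region at Nr4a2, which encodes the related receptor Nurr1, stood at 54.8, 55.1 and 67.1 in Nur77 and 39.1, 37.4 and 38.7 in GFP libraries (limma, adjusted p = 0.0315). Its call ended without Nur77 library 3 (adjusted p = 0.177) and without GFP libraries 1, 2 and 3 (0.0827, 0.114 and 0.102). The groups did not overlap.

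Near AP-1 and related bZIP factor genes 1 of 121 regions ranked higher and 13 lower (0.826% and 10.7%, against 2.51% and 4.39% of all shared regions). Of those lower, 8 lay on chromosome 12, near Fos and Batf. The region over Fos stood at 84.3, 80.9 and 88.3 in Nur77 and 96.3, 96.9 and 96.0 in GFP libraries (limma, adjusted p = 0.000156), and with ranks taken within each chromosome its adjusted p was 0.138. Larger shifts also lay nearby, such as −26.9 points at a region 4.19 kb from Fos (limma, adjusted p = 3.15e-06). No value with ranks within each chromosome is given for that region. The region inside Batf stood at 91.1, 90.5 and 88.7 in Nur77 and 98.2, 98.5 and 98.2 in GFP libraries (adjusted p = 4.51e-05, and 0.0504 with ranks within each chromosome). Outside chromosome 12 the counts were 1 higher and 5 lower of 110, beside 2.58% and 3.03% of all shared regions there.

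Cytokine and chemokine genes, none on chromosome 12, had 0 regions ranked higher and 6 lower of 89 (0% and 6.74%). Outside chromosome 12, 2.58% of all shared regions ranked higher and 3.03% lower. The 6 lay near only Ccl2, Csf1 and Il1b. The list's median shift was 0.365 points, against 0.28 over all shared regions and 0.479 outside chromosome 12. The region inside Ccl2, a monocyte chemoattractant gene (chr11:82034659-82036087), stood at 57.9, 53.5 and 55.8 in Nur77 and 79.1, 78.9 and 78.5 in GFP libraries (limma, adjusted p = 0.000912). A further region 18.4 kb from Ccl2 shifted by −28.6 points (adjusted p = 0.002). The region 25.6 kb from Il1b, the interleukin-1 beta gene, stood at 40.4, 47.9 and 31.5 in Nur77 and 71.2, 72.2 and 61.4 in GFP libraries (adjusted p = 0.0039). The region 16.9 kb from Csf1, the macrophage growth factor gene, stood at 16.9, 6.31 and 15.2 in Nur77 and 50.8, 50.4 and 59.7 in GFP libraries (adjusted p = 0.000797). The groups lay apart at each of these regions, and these 4 calls held without any 1 library. The strongest of the 6, a region 27.5 kb from Ccl2, shifted by −8.70 points (limma, adjusted p = 0.0306). Its call ended without any 1 library other than Nur77 library 2.

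Macrophage surface and granule genes, none on chromosome 12, likewise had 0 regions higher and 7 lower of 100 (0% and 7%). This stands beside 2.58% and 3.03% of all shared regions outside chromosome 12. The promoter region of Lyz2, the lysozyme gene, stood at 55.6, 49.9 and 46.4 in Nur77 and 70.7, 74.9 and 75.2 in GFP libraries (limma, adjusted p = 0.0035). The region 15.5 kb from Ctsd, the cathepsin D gene, stood at 39.2, 29.6 and 32.6 in Nur77 and 74.4, 69.4 and 65.8 in GFP libraries (adjusted p = 0.000366). Both held without any 1 library. Regions near Mrc1, Cd68 and Fcgr1 also ranked lower, by calls that ended without any 1 library other than Nur77 library 2. Their shifts were −21.1, −8.25 and −1.25 points, the last at a region averaging 98.4 in Nur77 and 99.6 in GFP libraries. A second region, 46.7 kb from Fcgr1, shifted by −28.0 points (limma, adjusted p = 0.0134). The list's median shift was −1.59 points, against 0.28 over all shared regions.

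**Figure D5:**
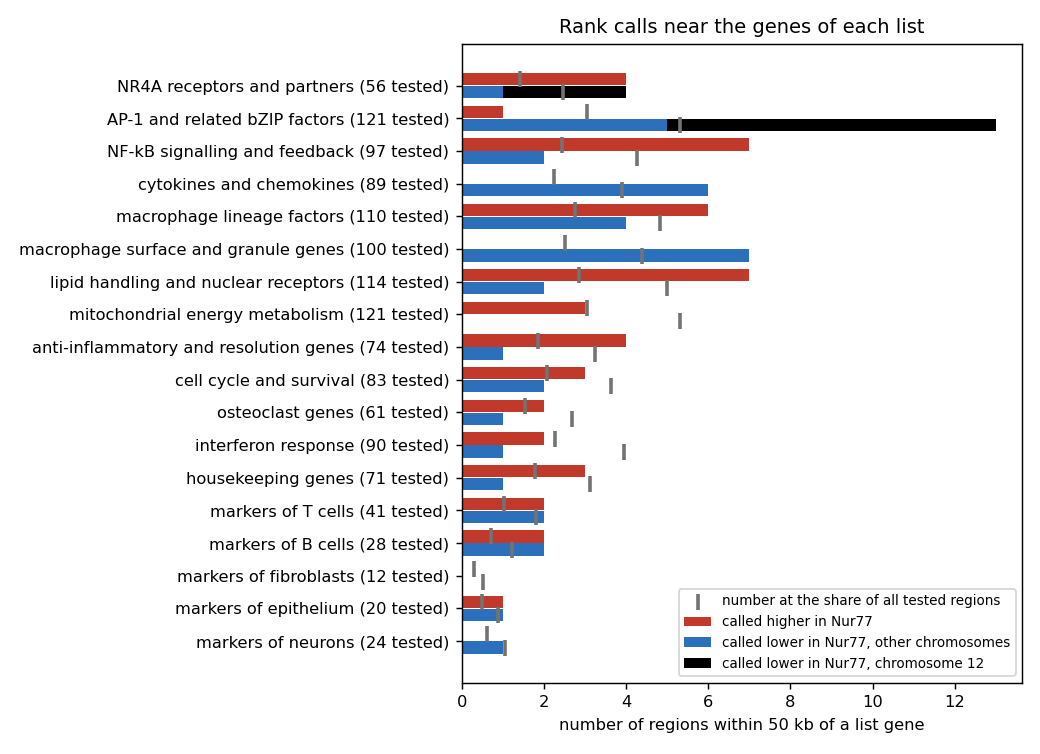
Number of shared regions (x axis) within 50 kb of the genes of each list (y axis) that ranked higher in Nur77 (red) or lower, outside chromosome 12 (blue) and on it (black). Grey ticks mark the number that 2.51% (higher) or 4.39% (lower) of the list's tested regions would give. Outside chromosome 12 the share of all shared regions called lower was 3.03%. Cytokine and macrophage surface genes had 0 higher and 6 and 7 lower.

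Other macrophage lists had regions in both directions. Over all shared regions 2.51% ranked higher and 4.39% lower, and outside chromosome 12 the shares were 2.58% and 3.03%. NF-kB signalling genes had 7 of 97 higher and 2 lower (7.22% and 2.06%). The region at Ikbke, an IkB kinase gene, stood at 75.4, 87.4 and 69.8 in Nur77 and 58.7, 54.5 and 54.0 in GFP libraries (limma, adjusted p = 0.0077, and 0.093 without a mean-variance trend). Macrophage lineage factors had 6 of 110 higher and 4 lower (5.45% and 3.64%). The region over Egr1, an immediate early zinc finger gene, stood at 91.9, 91.9 and 95.5 in Nur77 and 99.2, 99.3 and 98.9 in GFP libraries (adjusted p = 9.7e-05). The region 19.4 kb from Irf8, a myeloid lineage factor gene, stood at 93.7, 90.0 and 94.3 in Nur77 and 81.8, 82.3 and 86.1 in GFP libraries (adjusted p = 0.0072, and 0.0557 without GFP library 2).

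Lipid handling and nuclear receptor genes had 7 of 114 regions higher and 2 lower (6.14% and 1.75%, against 2.58% and 3.03% of all shared regions outside chromosome 12). The higher ones included the Def6 region described above, counted through Ppard, and a region nearest to Cenpm, counted through Srebf2. The region inside Abcg1, a cholesterol exporter gene, stood at 81.2, 78.2 and 74.3 in Nur77 and 59.4, 56.0 and 64.9 in GFP libraries (limma, adjusted p = 0.0088, and 0.0664 without GFP library 2). Mitochondrial energy genes had 3 higher and 0 lower of 121 (2.48% and 0%), the higher share being near that of all shared regions. Those higher regions were nearest to Sema4b or Acsbg1, which are not in the list. Anti-inflammatory genes had 4 higher and 1 lower of 74 (5.41% and 1.35%). The higher ones were nearest to Trib1, Stard7, Rmi2 and Pgs1, of which only Trib1 is in the list. The region at Trib1, a pseudokinase gene, stood at 54.8, 56.7 and 51.2 in Nur77 and 11.6, 33.8 and 5.87 in GFP libraries (adjusted p = 0.0046, and 0.0613 without a mean-variance trend). Interferon response genes had 2 higher and 1 lower of 90 (2.22% and 1.11%), the higher share again near that of all. The region inside Ifngr2, an interferon gamma receptor gene, stood at 69.3, 68.9 and 64.5 in Nur77 and 41.7, 26.9 and 28.6 in GFP libraries (adjusted p = 0.000759). In the other direction, a region 5.79 kb from Ifngr2 (chr16:91540657-91541268) was in 0 Nur77 and 3 GFP lists and was lost in both settings. After LPS it was in no list of either line.

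Rank calls in the remaining lists numbered at most 3 in a direction. None of these lists has a gene on chromosome 12, and outside it 2.58% of all shared regions ranked higher and 3.03% lower. Osteoclast genes had 2 of 61 higher and 1 lower (3.28% and 1.64%). Cell cycle and survival genes had 3 of 83 higher and 2 lower (3.61% and 2.41%), and housekeeping genes 3 of 71 higher and 1 lower (4.23% and 1.41%). Markers of other cell types had 2 higher and 2 lower of 41 (T cells, 4.88% each), 2 and 2 of 28 (B cells, 7.14% each, the shares seen near the NR4A genes), 0 and 0 of 12 (fibroblasts), 1 and 1 of 20 (epithelium) and 0 and 1 of 24 (neurons). In the peak lists as deposited, lost regions outnumbered gained ones near the genes of every list. Osteoclast genes had 7 lost and 0 gained of 158 regions, and anti-inflammatory genes 9 and 0 of 201. Macrophage lineage factors had 13 lost and 1 gained of 268, and mitochondrial energy genes 7 and 0 of 275. Over all regions outside chromosome 12, 2353 were lost and 238 gained of 77727. A region within 50 kb of a gene need not act on it.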

How the data were processed

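Peak lists of 6 ATAC-seq libraries were used, 3 Nur77 and 3 GFP, grouped by the titles, with the 6 LPS libraries for look-up. The build was mm10, and the tools cutadapt 2.6 and DiffBind 3.0.15 are named, per the submitters' processing notes; which aligner and caller made the lists is not stated in the sources used. The deposited score, the deposited fold (a ratio of the summit over background), the deposited −log10 p and the deposited −log10 q are the authors' values per peak and were used only to rank, filter or describe peaks within a list. Peaks were called per library.

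Rows of equal start and end were collapsed, chromosomes 1 to 19, X and Y kept, and peaks merged into regions, called at an overlap of at least 1 bp. Shared regions took their highest −log10 q, were ranked within each library, turned into normal scores and tested with limma 3.58.1 (eBayes with trend, R 4.3.3) over all shared regions, with Benjamini-Hochberg adjustment at 0.05. Errors are SDs over libraries. Library values were tested by exact permutation. The fit was tested on simulated data, where a first criterion on recovery was missed and was replaced, after its outcome was seen, by criteria on slope, sign and false calls, which were met. Small simulated shifts were seldom recovered. Python 3.11.15 with pandas 2.3.3, numpy 2.4.6, scipy 1.17.1 and matplotlib 3.10.9 was used.

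Nearest genes are the 21887 protein-coding genes of the RefSeq table for GRCm38.p6, and promoters and sequences come from its table of 32851 starts. A promoter was placed under a region when their coordinates overlapped, so its gene need not be the region's nearest gene. Promoters of chromosome 18 were not analysed here. Planned motif scans of regions were limited to these promoters.

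The regions named are the one inside Nr4a1, the 10 gained and 10 lost with the highest mean percentile in both settings, and the 10 higher and 10 lower with the largest shifts, all outside chromosome 12. Up to 5 of each on chromosome 12, up to 5 per gene list, and those at Klf6, Ppargc1a, Zic5, Arhgef33 and Ece1 were added. Some regions the rule picks are not reported here. The members, lists and naming rule were chosen with earlier results of these data known. Alternatives were lists of equal length, ranking by fold, no chromosome 12, stricter q and overlap, a depth covariate, gene-end classes, no trend, a replicate block and leaving out each library.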

Additional observations from a re-analysis of the deposited data

How the results depend on the processing

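Counts moved with the processing. Against 240 gained regions, lists of equal length gave 692 and a required overlap of 50% of the region gave 378, and leaving out 1 library gave 304 to 1236. Against 2684 lost regions, equal length gave 1109 and leaving out 1 library 2777 to 5470. Against 763 regions ranked higher, eBayes without trend gave 403 and leaving out 1 library 322 to 999. Against 1337 ranked lower, eBayes without trend gave 702, ranks retaken without chromosome 12 gave 854, ranks within each chromosome, chosen after seeing the data, gave 806, and leaving out 1 library 595 to 2420. By construction, leaving out a library loosens the rule for gained and lost regions, so their counts cannot fall, and leaving out chromosome 12 removes its 449 lower calls. For the other moves the cause was not tested. Ranking by fold ordered the regions as −log10 q did and so tested nothing, and background height as a covariate gave 802 and 1654. Differences in peak number, covered length, gene-end share, chromosome 12 share and chromosome 12 rank kept their sign and never passed 0.05, which 3 against 3 cannot do. Without 1 library the peak number difference ran from −15942 to −5979, that of covered length from −12.7 to −0.39 Mb and that of gene-end share from 1.55 to 5.22 points, each nearest to 0 without Nur77 library 2. In lists of equal length covered length differed by −1.75 Mb and gene-end share by 0.47 points. Peak number has no value in lists of equal length. Of 97 regions tested by name, 38 kept direction and call in every setting and 44 did so in each fit without 1 library. The 1 reversal, near Ankrd9 on chromosome 12, was a shift of 0.22 points with ranks within each chromosome. Replicate numbers did not pair the libraries (correlations of −0.134, −0.088 and 0.0955 between same-numbered ones). With the replicate number as a block, 586 regions ranked higher and 1121 lower. Background height, a stand-in for depth, ran from 0.402 to 1.25 reads and was lowest in Nur77 library 2. Its part in the calls missing from that list was not tested beyond the settings above.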

Other observations

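Outside chromosome 12, some genes were nearest to several called regions. They were picked after their values were seen and carry no test. Plpp4, a phospholipid phosphatase gene, was nearest to 13 regions, of which 10 were lost in Nur77 and 6 of these also in lists of equal length. Pde10a, a cyclic nucleotide phosphodiesterase gene, had 8 lost of 32 regions, Ptpn3, a tyrosine phosphatase gene, 8 of 16, and Mreg 7 of 22. Pakap had 7 lost of 34 regions, and all 4 of its shared regions ranked lower. Tmem154 had 5 of 11 shared regions ranked lower, and Creb5, a bZIP factor gene, and Zfp184, a zinc finger gene, had 4 of 6 each. Among regions ranked higher, Elk3, an ETS repressor gene, had 5 of its 15 shared regions, Arid3a, a DNA-binding factor gene, 4 of 5, St3gal5, a ganglioside synthase gene, 4 of 7, and Dapk1, a death-associated kinase gene, 3 of 3. Gained regions in the lists as deposited were more scattered, with at most 2 at any gene, among them Cd36, a scavenger receptor gene, and Clock, a circadian factor gene. Only 1 gene, Sipa1l3, had 2 regions gained in both settings, so Cd36 and Clock did not. A shared region inside Cd36 went the other way and ranked lower in Nur77, by −19.6 points (limma, adjusted p = 0.0306). Regions of 1 gene can share a local change, so they are not independent.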
